A study of Mus musculus with 2 samples.

Results

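Platelet-derived growth factor (PDGF) signalling was described through 5 genes: the ligand genes Pdgfa, Pdgfb, Pdgfc and Pdgfd and the beta receptor gene Pdgfrb. They were picked by symbol as 5 of the 32287 features counted, and Pdgfra, the alpha receptor gene, is given beside them for reference only. The data were 2 droplet single-cell RNA libraries (Chromium), R1 and R2, of the leptomeninges, the thin inner membranes of the brain, peeled by hand from the cerebral hemispheres of mice. The labels put both libraries in 1 group: Pdgfra-H2BGFP reporter animals, males and females, 3 months old, with no treatment named. No other genotype and no control group was given, so every comparison below is between classes of cells inside these libraries. The reporter is a nuclear green fluorescent protein under Pdgfra control elements, carried by all animals, and no animals without it were analysed here. The labels do not say whether R1 and R2 came from separate animals, so p-values measure only the spread between these 2 libraries, which may be technical.

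PDGF ligands are secreted dimers that bind 2 receptor tyrosine kinases. PDGF-A and PDGF-C act mainly through the alpha receptor, PDGF-D mainly through the beta receptor, and PDGF-B through both, and PDGF-C and PDGF-D are secreted in a latent form that proteases must cut. In brain vessels, endothelial cells are the textbook source of PDGF-B, which a retention motif holds near the vessel wall, and pericytes carry the beta receptor and depend on this signal for their recruitment. Fibroblasts of connective tissue carry either receptor. In the genome build GRCm38, Pdgfa lies at chr5:138976014-138997370 on the minus strand, Pdgfb at chr15:79995874-80014977 on the minus strand, Pdgfc at chr3:81036416-81214040 on the plus strand and Pdgfd at chr9:6168584-6378850 on the plus strand.

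The RefSeq start-site sequences (GRCm38.p6, 250 bases before to 50 after the start, 5′ to 3′ on the gene's strand) of Pdgfa and Pdgfd are shown because both ligands had higher levels in the dural border-like layer described further on. Capitals mark GGGCGG on either strand (the other strand reads CCGCCC), the GC box bound by Sp1, or TATAAA on either strand, a TATA box. Pdgfa has windows for 2 annotated starts, chr5:138994232-138994531 and chr5:138994895-138995194, and Pdgfd for 1, chr9:6168236-6168535.
Pdgfa, chr5:138994232-138994531, minus strand: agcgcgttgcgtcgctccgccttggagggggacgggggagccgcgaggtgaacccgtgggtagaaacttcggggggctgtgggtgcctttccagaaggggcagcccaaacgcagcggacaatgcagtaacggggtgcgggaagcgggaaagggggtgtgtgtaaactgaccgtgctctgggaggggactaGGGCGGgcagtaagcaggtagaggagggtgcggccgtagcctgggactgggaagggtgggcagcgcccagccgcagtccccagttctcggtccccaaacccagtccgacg
Pdgfa, chr5:138994895-138995194, minus strand: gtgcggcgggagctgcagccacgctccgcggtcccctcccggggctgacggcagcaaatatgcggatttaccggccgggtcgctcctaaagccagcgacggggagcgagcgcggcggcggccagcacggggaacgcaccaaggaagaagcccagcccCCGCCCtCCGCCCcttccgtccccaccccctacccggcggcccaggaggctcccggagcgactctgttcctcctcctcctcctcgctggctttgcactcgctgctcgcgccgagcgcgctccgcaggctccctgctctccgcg
Pdgfd, chr9:6168236-6168535, plus strand: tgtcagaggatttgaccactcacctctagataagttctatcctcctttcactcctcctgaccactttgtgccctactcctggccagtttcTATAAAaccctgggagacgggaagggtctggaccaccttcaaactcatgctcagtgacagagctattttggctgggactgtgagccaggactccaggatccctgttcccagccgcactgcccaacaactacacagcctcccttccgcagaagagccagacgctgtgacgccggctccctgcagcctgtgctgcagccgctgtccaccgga
The first Pdgfa window holds 1 GGGCGG in 67% G and C, and the other holds 2 in 73.33% G and C. The Pdgfd window, at 56.67% G and C, holds no GGGCGG and 1 TATAAA. Of all 32851 promoter windows of this length in the table, 35.66% hold GGGCGG and 13.62% hold TATAAA, and these matches are descriptions of letters, not of binding. The Pdgfc window, at 55% G and C, holds neither.

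The deposited counts covered 7276 barcodes in R1 (14586462 UMIs, each standing for a captured RNA molecule) and 6743 barcodes in R2 (12359040 UMIs). Loading had aimed at no more than 5000 cells for each sample, fewer than the barcodes deposited. Barcodes with fewer than 400 genes, or with more than 10% of their UMIs from mitochondrial genes, were dropped, which left 2988 cells and 7638905 UMIs in R1 and 3038 cells and 6276801 UMIs in R2. Of the kept cells, 1414 in R1 and 1825 in R2 held under 1% UMIs of Malat1, a nuclear RNA, and results that move with this are given apart. Over all kept cells, Pdgfa had 534 and 420 UMIs in R1 and R2, Pdgfb 490 and 350, Pdgfc 37 and 33, Pdgfd 144 and 144, and Pdgfrb 690 and 465. Levels below are in CPM: a gene's UMIs in the summed cells of a class, per 1000000 UMIs of all genes in those cells, for each library. Intervals on them are exact 95% Poisson or Clopper-Pearson intervals, cover counting error only, and levels of different genes are not compared with each other. The classes, each called "like" a cell type, were drawn from the same counts as are compared, by marker lists that leave out the 5 genes and Pdgfra.

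The fibroblast-like cells fell into 4 named layers, from the brain surface outward: pial and perivascular (185 cells in R1, 111 in R2), inner arachnoid (213 and 380), arachnoid barrier (141 and 62) and dural border (425 and 230). Vessel cells were endothelial-like (228 and 213; arterial 65 and 73, capillary 70 and 40, venous 93 and 100) and mural-like (60 and 37; pericyte 31 and 12, smooth muscle 29 and 25). Myeloid cells were border macrophage-like (535 and 680), microglia-like (187 and 99) and monocyte or dendritic-like (86 and 90). The arachnoid barrier-like name was the weakest: 5 of its 8 markers were detected in each library, with the keratin genes Krt8 and Krt18 at 0 in both, and the dural border list summed to 9122 and 11394 CPM there, against 11591 and 13999 CPM in the dural border-like cells. The inner arachnoid-like class joined cluster F02 (141 and 310 cells), led by Igha, Igkc and Ppp1r1a, with cluster F04 (72 and 70 cells), whose 10 leading genes held none of its own list and included Atp13a5, a gene of the pericyte list. The venous-like class joined clusters V00 and V07, and the leading genes of V07 also held none of their own list. Clusters inside the fibroblast-like and venous-like classes are therefore given apart where they differ.

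R1 and R2 shared 93 cell barcodes. Of these, 74 were kept in both libraries, 71 of them fell in the same cluster in both, and the correlation of log counts across genes was 0.4183 at the median for a shared barcode, against 0.1538 for 65 pairs of different barcodes of the same class. Most sat in 3 places. Cluster V00 of the venous-like cells consisted of them (29 cells in R1, 30 in R2; 52.99% and 50.29% of venous-like UMIs), as did 28 of 28 and 27 of 29 cells of the unnamed cluster V05, and they were 11 of 29 and 12 of 25 smooth muscle-like cells (49.07% and 73.6% of UMIs). None fell in the pericyte-, arterial-, capillary- or pial-like cells. Shared barcodes thereby held 24.75% and 30.37% of all endothelial-like UMIs and 22.99% and 53.38% of all mural-like UMIs. The R1 and R2 values of venous- and smooth muscle-like cells are therefore not from separate sets of barcodes. The same holds in part for endothelial-like and mural-like cells as a whole. Values without the shared barcodes are given beside the venous- and smooth muscle-like results and beside some of the whole-class ones.

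Pdgfb, whose product is the ligand that endothelium retains for pericytes, was highest in endothelial-like cells and next in microglia-like cells, and was close to undetected in the arachnoid and dural border-like layers. Endothelial-like cells had 371 and 313 CPM in R1 and R2 (184 and 135 UMIs; intervals 320 to 429 and 263 to 371), or 342.2 ± 41.2 CPM (SD, n = 2). The endothelial-like sums include the shared barcodes of cluster V00, in which Pdgfb was lower, as given further on. Microglia-like cells had 196 and 243 CPM (113 and 64 UMIs), or 219.5 ± 33.6 CPM. The libraries of these classes did not overlap, and neither did microglia-like and mural-like cells (192 and 70.9 CPM, 33 and 6 UMIs). Monocyte or dendritic-like cells had 67.8 and 73.6 CPM, which overlapped with the mural-like cells. The level in border macrophage-like cells was 46.7 and 30.2 CPM, below both of these. Among the layers, Pdgfb was at 9.78 and 13.6 CPM in pial-like cells (4 and 3 UMIs), 1.96 and 3.87 CPM in dural border-like cells (2 UMIs each), and 0 and 1.56 CPM in inner arachnoid-like cells (1 UMI in R2). Arachnoid barrier-like cells had 0 UMIs in either library, which allows up to 7.62 and 16.5 CPM (3 counts per library).

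**Figure D1:**
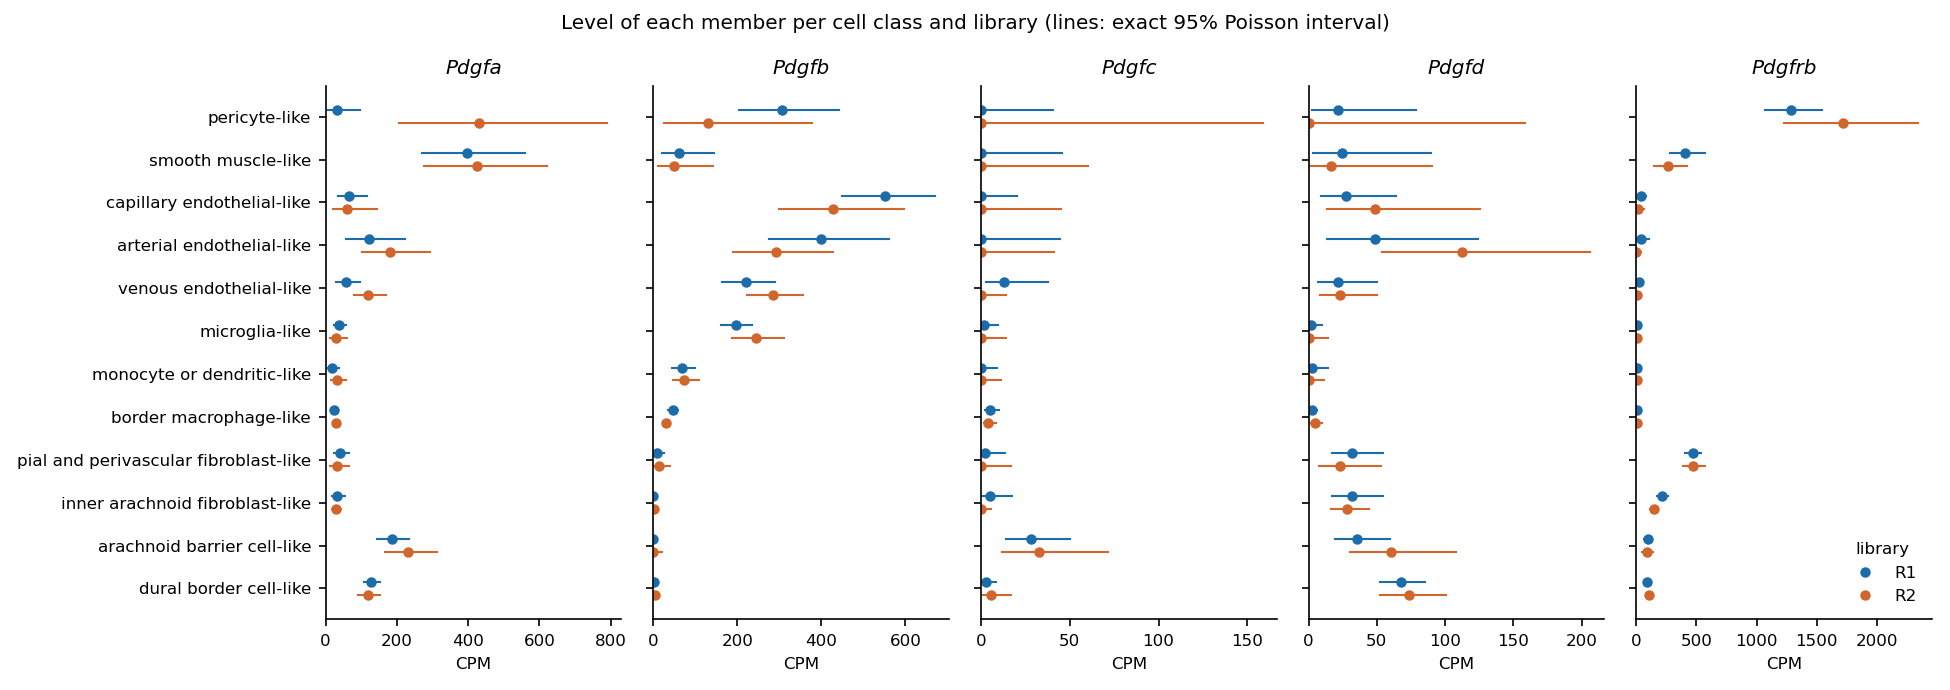
Levels of the 5 genes in CPM (x axis, linear, 1 panel per gene) for 12 classes from pericyte-like at the top to dural border-like at the bottom, with a point for each library (R1 blue, R2 orange) and a line for its exact 95% Poisson interval. Pdgfb sat highest in capillary-like cells (551 and 429 CPM) and Pdgfrb in pericyte-like cells (1289 and 1720 CPM), while pial-like cells stood highest for Pdgfrb among the layers (469 and 471 CPM).

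Over all kept cells, endothelial-like cells held 37.6% and 38.6% of the Pdgfb UMIs, microglia-like cells 23.1% and 18.3%, and border macrophage-like cells, though low per UMI, 13.3% and 13.1%. The Pdgfb level of endothelial-like cells was 126 and 65.9 times the mean CPM of the 4 layers in R1 and R2. In edgeR's quasi-likelihood test with Benjamini-Hochberg adjustment over all genes tested, endothelial-like cells exceeded the layers by 7.61 ± 0.28 on the log2 scale (SE; adjusted p = 1.5e-159). That fit averages the logs of the layers, and 1 layer is at 0 counts, so the fitted size depends on how a 0 is handled and the CPM ratios describe it better. Border macrophage-like cells exceeded the layers by 4.66 ± 0.42 (adjusted p = 6.1e-28), with CPM ratios of 15.9 and 6.36.

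Endothelial-like cells also had more Pdgfb than mural-like cells, 371 and 313 CPM against 192 and 70.9 CPM, a log2 difference of 1.31 ± 0.29 (edgeR, adjusted p = 2.5e-04). The mural-like Pdgfb came almost wholly from cells that also held endothelial markers: 32 of 33 UMIs in R1 and 6 of 6 in R2 lay in cells with UMIs of at least 3 endothelial markers. In pericyte-like cells, at 306 and 129 CPM, this was 27 of 28 and 3 of 3 UMIs. Such cells were 28 of the 60 and 15 of the 37 mural-like cells and held 73.2% and 58.2% of all mural-like UMIs, and Pdgfb was at 254 and 122 CPM in them, against 21.7 and 0 CPM in the other mural-like cells, where 0 in R2 allows up to 84.8 CPM. The 10 genes of the endothelial list were all detected in the mural-like sums, at a summed 12696 and 12214 CPM, against 21750 and 21528 CPM in endothelial-like cells. When cells with at least 3 markers of another class were left out, the 24 and 17 mural-like cells that remained held 0 Pdgfb UMIs among 32510 and 26111. That allows up to 92.3 and 115 CPM, so in R2 the level with all cells (70.9 CPM) is not outside this limit. With classes drawn on a random part of the counts and tested on the other, the difference was 0.19 (adjusted p = 0.858), so this call was not kept there. By library it was 1.0 in R1 and 2.12 in R2 (logs with a prior count of 2).

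Within the endothelium, Pdgfb was at 551 and 429 CPM in capillary-like cells (100 and 35 UMIs), 399 and 292 CPM in arterial-like cells (33 and 26 UMIs) and 220 and 284 CPM in venous-like cells (51 and 74 UMIs). In both libraries capillary-like cells were above arterial-like cells and arterial-like cells above venous-like cells. Venous-like cells were below capillary-like cells by edgeR's test (log2 difference −0.84 ± 0.23, adjusted p = 0.00365). The venous-like cells outside the shared barcodes, cluster V07, had 312 and 479 CPM, whereas cluster V00, all shared barcodes, had 139 and 91.6 CPM. Without shared barcodes the venous-like to capillary-like difference was −0.29 (adjusted p = 0.522), and DESeq2's adjusted p with all cells was 0.401, so the call holds in neither. By library the difference with all cells was −1.15 in R1 and −0.42 in R2. Arterial-like cells did not pass the test against capillary-like cells (−0.44 ± 0.26, adjusted p = 0.233) or against venous-like cells (0.40 ± 0.27, adjusted p = 0.242).

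**Figure D2:**
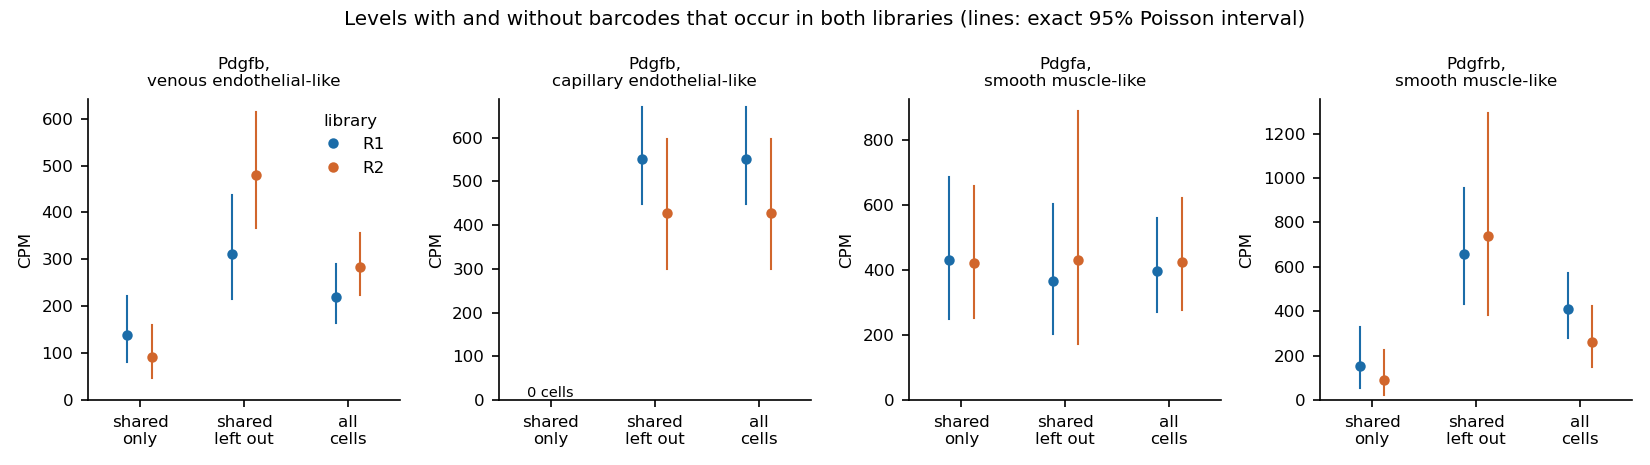
Levels in CPM (y axis) of Pdgfb in venous- and capillary-like cells and of Pdgfa and Pdgfrb in smooth muscle-like cells, each from shared barcodes only, with shared barcodes left out, and from all cells (R1 blue, R2 orange, lines exact 95% Poisson intervals). Shared barcodes were lower in venous-like Pdgfb (139 and 91.6 CPM, against 312 and 479 CPM without them) and in smooth muscle-like Pdgfrb (151 and 88.5 CPM, against 657 and 740 CPM), and capillary-like cells held none.

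Among myeloid cells, Pdgfb was higher in microglia-like cells (196 and 243 CPM) than in border macrophage-like cells (46.7 and 30.2 CPM), by 2.41 ± 0.20 on the log2 scale (edgeR, adjusted p = 2.6e-30), with CPM ratios of 4.19 and 8.05. The defining markers separated these classes: the microglia list summed to 11090 and 10453 CPM in microglia-like cells, against 716 and 635 CPM in border macrophage-like cells, and the scavenger receptor gene Cd163 was at 0 in microglia-like cells of both libraries. Within each class Pdgfb also moved with Malat1. In microglia-like cells it was 239 and 284 CPM in cells with at least 1% Malat1 UMIs, against 77.4 and 137 CPM in cells below 1%. In border macrophage-like cells the values were 60.5 and 44.0 CPM, against 25.5 and 12.2 CPM, and in monocyte or dendritic-like cells 101 and 89.2 CPM, against 38.1 and 48.3 CPM. Microglia-like cells joined cluster C12 (96.4% and 95.2% of cells with at least 1% Malat1, median 5099 and 4916 UMIs) with C11 (3.85% and 0%, 1108 and 1019 UMIs). Border macrophage-like cells joined C04 (85.2% and 87.5%, 5248.5 and 4927.5 UMIs) with C07 (3.49% and 2.18%, 1138 and 988 UMIs). Malat1 content, cluster and depth therefore cannot be told apart within these classes. Their part in these levels was not tested. Among cells with at least 1% Malat1 the microglia-like to border macrophage-like difference was 2.11.

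**Figure D3:**
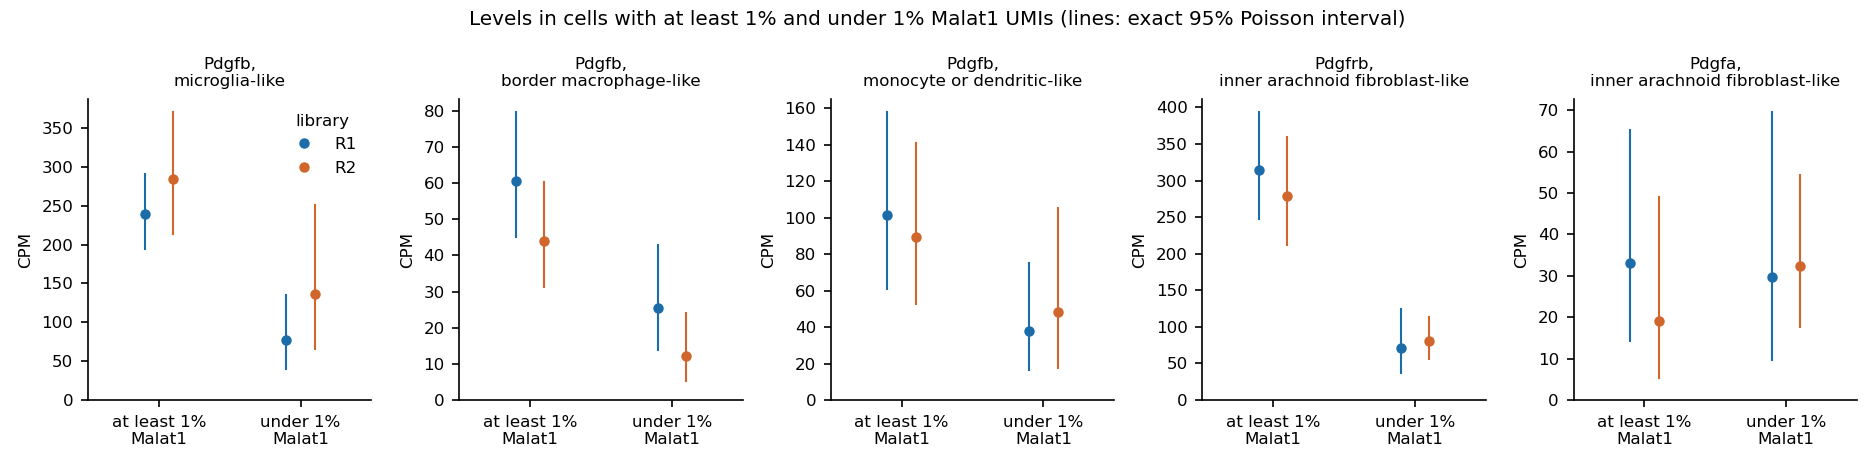
Levels in CPM (y axis) in cells with at least 1% and under 1% Malat1 UMIs, for Pdgfb in microglia-, border macrophage- and monocyte or dendritic-like cells and for Pdgfrb and Pdgfa in inner arachnoid-like cells (R1 blue, R2 orange, lines exact 95% Poisson intervals). Pdgfb was higher with at least 1% Malat1 in the 3 myeloid classes, and inner arachnoid-like Pdgfrb was 315 and 278 CPM there, against 71.5 and 81.1 CPM under 1%.

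For the share of cells with a Pdgfb UMI, each cell was thinned to 1000 UMIs and shallower cells were left out. It was 28.0% in R1 (51 of 182 cells, interval 21.6% to 35.1%) and 27.0% in R2 (43 of 159, interval 20.3% to 34.7%) for endothelial-like cells. Microglia-like cells had 9.03% (13 of 144) and 18.6% (13 of 70), and border macrophage-like cells 2.65% (10 of 378) and 1.93% (8 of 415). Arachnoid barrier-like cells, a class in which the gene was at 0, gave 0 of 134 and 0 of 57 cells, which allows up to 2.24% and 5.26%. Unthinned, the shares were 46.1% and 35.7% in endothelial-like, 32.1% and 34.3% in microglia-like and 8.22% and 5.29% in border macrophage-like cells. Median depth was 1568.5 and 1461 UMIs in endothelial-like, 1899 and 1553 in microglia-like, 1453 and 1203 in border macrophage-like and 2614 and 2467.5 in arachnoid barrier-like cells.

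Pdgfa, whose product binds the alpha receptor, had its highest mean level in smooth muscle-like cells. Pericyte-like cells came next by the mean, but their libraries did not agree. They were followed by arachnoid barrier-like cells, and then by arterial-like and dural border-like cells, whose libraries overlapped. Levels were low in the pial, inner arachnoid and myeloid classes. Smooth muscle-like cells had 396.5 and 423.5 CPM (32 and 26 UMIs), or 410 ± 19.1 CPM (SD, n = 2). Without shared barcodes they had 365 and 432 CPM from 15 and 7 UMIs, and the shared barcodes alone had 429 and 420 CPM, so the levels were close. Of these UMIs, 26 of 32 and 16 of 26 lay in cells with at least 3 endothelial markers, which held 69.6% and 59.4% of all smooth muscle-like UMIs. Pdgfa was at 463 and 439 CPM in those cells, against 244 and 401 CPM in the other smooth muscle-like cells. Pericyte-like cells had 32.8 and 430 CPM from 3 and 10 UMIs, and the libraries did not agree there. Mural-like cells as a whole, at 203 and 425 CPM, exceeded the layers by 2.0 ± 0.26 (edgeR, adjusted p = 6.6e-13), with CPM ratios of 2.10 and 4.17, and by 1.38 without shared barcodes (adjusted p = 4.8e-04). By library the difference with all cells was 1.38 in R1 and 2.54 in R2. Without cells holding 3 markers of another class, mural-like Pdgfa was at 215 and 421 CPM (7 and 11 UMIs). Markers of red blood cells were high in these cells, with a summed erythroid list of 31394 and 44806 CPM, against 1881 CPM in the endothelial-like cells of each library, and their part in the Pdgfa level was not tested.

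Among the layers, Pdgfa was 185 and 230.5 CPM in arachnoid barrier-like cells (73 and 42 UMIs; 207.9 ± 31.9 CPM) and 127 and 118 CPM in the dural border-like layer (130 and 61 UMIs; 122.7 ± 6.61 CPM). Pial-like cells had 41.6 and 31.7 CPM and inner arachnoid-like cells 31.8 and 28.1 CPM. The barrier-like values lay above the dural border-like ones, and both lay above the other layers in each library. In edgeR's test within the layers, arachnoid barrier-like cells exceeded the mean of the other layers by 1.72 ± 0.23 (adjusted p = 2.1e-11), with CPM ratios of 2.77 and 3.89. The arachnoid barrier-like class was named at Leiden resolution 1.0 only and at neither 0.6 nor 1.5, so no result on it has a value there. Dural border-like cells exceeded the mean of the other layers by 0.81 ± 0.21 (adjusted p = 0.0010). This call was not kept by DESeq2 (adjusted p = 0.136) or with at most 5% mitochondrial UMIs (adjusted p = 0.186). Inner arachnoid-like cells (−1.27 ± 0.29, adjusted p = 1.7e-04) and pial-like cells (−1.25 ± 0.31, adjusted p = 6.7e-04) were each below the mean of the other layers. Neither call was kept where cells were clustered at Leiden resolution 0.6 or 1.5, where the mean of the other layers lacks the arachnoid barrier-like cells and the dural border-like class held 399 and 235 cells in place of 655. In addition, the pial-like call was not kept with split counts (adjusted p = 0.0961). The clusters of the dural border-like layer, F00 and F01, had 124 and 137 CPM and 133 and 103 CPM in R1 and R2, and the clusters of the inner arachnoid-like layer, F02 and F04, had 31.4 and 29.9 CPM and 32.0 and 24.3 CPM, so Pdgfa was alike within each layer.

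In the endothelium Pdgfa was 121 and 179.5 CPM in arterial-like cells (10 and 16 UMIs), 56.2 and 119 CPM in venous-like cells (13 and 31 UMIs) and 66.1 and 61.2 CPM in capillary-like cells (12 and 5 UMIs). Arterial-like cells exceeded capillary-like cells by 1.19 ± 0.46 (edgeR, adjusted p = 0.0435), on few counts, and without the library as a block the call was not kept (1.32, adjusted p = 0.0502). By library it was 0.82 in R1 and 1.5 in R2. Endothelial-like cells as a whole, at 70.6 and 121 CPM, were below mural-like cells at 203 and 425 CPM (log2 difference −1.57 ± 0.30, adjusted p = 6.1e-06). Without shared barcodes they had 88.5 and 166.5 CPM, against 136 and 431 CPM in mural-like cells, and the difference was −0.67 (adjusted p = 0.334). Against the layers, endothelial-like cells differed by 0.36 ± 0.22 (adjusted p = 0.184) with all cells and by 0.68 (adjusted p = 0.0101) without shared barcodes, and venous-like cells without them exceeded capillary-like cells by 1.23 (adjusted p = 0.0428), against 0.45 ± 0.42 (adjusted p = 0.572) with all. Border macrophage-like cells, at 23.0 and 28.3 CPM, were below the layers (−1.31 ± 0.22, adjusted p = 2.2e-08).

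Thinned to 1000 UMIs, 21.6% and 17.5% of arachnoid barrier-like cells held a Pdgfa UMI (29 of 134 and 10 of 57), and 2.65% and 1.2% of border macrophage-like cells did. The counting of reads by strand is not given in the sources used here. An antisense gene that overlaps Pdgfa, 6330403L08Rik, had 38 and 31 UMIs over all kept cells, beside 534 and 420 of Pdgfa, and reads of that overlap cannot be told apart if strand was not used. The genes overlapping Pdgfb and Pdgfc, Gm41361 and Gm16000, had 0 UMIs in both libraries, and Ddi1, which overlaps Pdgfd, had 2 and 0.

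Pdgfc, a latent ligand of the alpha receptor, was the scarcest of the 5 in UMIs. Among the named classes its level was highest in arachnoid barrier-like cells, but most of its UMIs lay elsewhere. Arachnoid barrier-like cells had 27.9 and 32.9 CPM from 11 and 6 UMIs, of 37 and 33 over all kept cells (29.7% and 18.2%). The unnamed cluster F07 held 4 and 11 UMIs. The other layers had at most 3 UMIs in a library, which came to 2.94 and 5.81 CPM in dural border-like cells, 4.88 and 0 CPM in inner arachnoid-like cells and 2.44 and 0 CPM in pial-like cells. In border macrophage-like cells it was 5.03 and 3.94 CPM (7 and 6 UMIs), and mural-like and monocyte or dendritic-like cells had 0 UMIs in both libraries. The barrier-like values stood above every other layer in both libraries. Arachnoid barrier-like cells exceeded the mean of the other layers by 3.31 ± 0.79 (edgeR, adjusted p = 5.7e-04), with CPM ratios of 8.16 and 17.0 that rest on these few UMIs, and among the other comparisons of classes given above none called Pdgfc.

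Pdgfd, a latent ligand of the beta receptor, was highest among the layers in dural border-like cells, was present at lower levels in the other layers and in endothelium, and was close to undetected in myeloid cells. Dural border-like cells had 67.6 and 73.5 CPM (69 and 38 UMIs; 70.6 ± 4.19 CPM). Its level was 35.6 and 60.4 CPM in arachnoid barrier-like cells (14 and 11 UMIs), 31.8 and 28.1 CPM in inner arachnoid-like cells and 31.8 and 22.6 CPM in pial-like cells. The dural border-like values lay above the others, the barrier-like values lay above the inner arachnoid- and pial-like ones, and those of these last layers overlapped. Endothelial-like cells (28.3 and 46.4 CPM) overlapped with all of them but the dural border-like layer. Dural border-like cells exceeded the mean of the other layers by 0.86 ± 0.25 (edgeR, adjusted p = 0.0049), with CPM ratios of 2.05 and 1.99. This call was not kept by DESeq2 (adjusted p = 0.31) or with split counts (adjusted p = 0.132), and the other layers did not pass the test (−0.06 ± 0.35 in arachnoid barrier-like, −0.15 ± 0.33 in inner arachnoid-like and −0.65 ± 0.37 in pial-like cells). Its clusters F00 and F01 had 74.5 and 75.1 CPM and 56.5 and 72.3 CPM, each above every other layer of the same library.

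Arterial-like cells had 48.4 and 112 CPM of Pdgfd, from 4 and 10 UMIs, capillary-like cells 27.5 and 49.0 CPM, and venous-like cells 21.6 and 23.0 CPM, and the gene was too scarce to enter the endothelial test. Endothelial-like cells differed from the layers by −0.14 ± 0.32 (adjusted p = 0.779). Mural-like cells, at 23.2 and 11.8 CPM from 4 and 1 UMIs, differed from the layers by −1.0 ± 0.64 (adjusted p = 0.291). In border macrophage-like cells Pdgfd was at 2.16 and 4.6 CPM, below the layers (−3.30 ± 0.39, edgeR, adjusted p = 2.7e-16), while microglia-like cells had 1.73 and 0 CPM and monocyte or dendritic-like cells 2.51 and 0 CPM.

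Pdgfrb, the beta receptor that binds PDGF-B and PDGF-D, was highest in pericyte-like cells and then in pial-like fibroblasts, lower in the arachnoid and dural border-like layers, and lowest in endothelial and myeloid cells. The gene lies at chr18:61045150-61085061 on the plus strand. Pericyte-like cells had 1289 and 1720 CPM (118 and 40 UMIs; 1504 ± 305 CPM), 2.75 and 3.65 times the pial-like level, a ratio that was not tested. Pial-like cells had 469 and 471 CPM (192 and 104 UMIs; 470.1 ± 1.01 CPM). Smooth muscle-like cells had 409 and 261 CPM (33 and 16 UMIs). The libraries of these 3 did not overlap. Pericyte-like cells with at least 3 endothelial markers held 76.4% and 55.1% of all pericyte-like UMIs. Pdgfrb was at 643 and 1561 CPM in them, against 3380 and 1915 CPM in the other pericyte-like cells. The pericyte-like level and its ratio to the pial-like level therefore depend on these mixed cells. Without shared barcodes smooth muscle-like cells had 657 and 740 CPM, above the pial-like cells. The shared barcodes alone had 151 and 88.5 CPM. Smooth muscle-like cells with at least 3 endothelial markers had 267 and 82.2 CPM of Pdgfrb. The other smooth muscle-like cells had 733 and 522 CPM, also above the pial-like cells. The place of smooth muscle-like cells below pial-like cells was therefore lost without either group of cells, and the part of each was not tested.

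Mural-like cells as a whole, at 877 and 662 CPM (151 and 56 UMIs; 769 ± 152 CPM), exceeded the layers in Pdgfrb by 2.26 ± 0.19 (edgeR, adjusted p = 6.0e-31), with CPM ratios of 4.04 and 3.26, and by 2.62 without shared barcodes. They had 1261 and 651 CPM when cells with 3 markers of another class were left out. Endothelial-like cells had 30.3 and 6.96 CPM (15 and 3 UMIs) and were below mural-like cells (−5.26 ± 0.32, adjusted p = 1.5e-54) and below the layers (−3.06 ± 0.27, adjusted p = 9.1e-29; −2.36 in R1 and −3.94 in R2). Border macrophage-like cells, at 7.90 and 9.20 CPM, were below the layers (−4.00 ± 0.23, adjusted p = 6.2e-69), and microglia-like cells had 6.93 and 3.80 CPM. The difference of microglia-like over border macrophage-like cells did not pass the test (−0.58 ± 0.68, adjusted p = 0.625), and its error is too wide to show that they are alike. The mural list was present in endothelial-like cells at a summed 837 and 640 CPM, against 14815 and 17341 CPM in mural-like cells, with the smooth muscle gene Cnn1 at 0 in both libraries of the endothelial-like cells.

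Among the layers, Pdgfrb was at 469 and 471 CPM in pial-like cells, 215 and 145 CPM in the inner arachnoid-like layer, 87.2 and 108 CPM in the dural border-like layer and 96.5 and 87.8 CPM in the arachnoid barrier-like layer. Pial-like and inner arachnoid-like cells each lay above the next layer in both libraries, and dural border-like and barrier-like cells overlapped. In edgeR's test within the layers, pial-like cells exceeded the mean of the other layers by 2.01 ± 0.18 (adjusted p = 2.4e-23), with CPM ratios of 3.53 and 4.14. Dural border-like cells were below it (−1.25 ± 0.20, adjusted p = 4.2e-08), as were arachnoid barrier-like cells (−1.35 ± 0.24, adjusted p = 1.1e-06). The arachnoid barrier-like call was not kept when unnamed fibroblast-like clusters entered the mean (−0.58, adjusted p = 0.0795). Genes of the mural list summed to 6779 and 5550 CPM in pial-like cells, with the pericyte gene Abcc9 and the smooth muscle gene Cnn1 at 0 in both libraries, against 14815 and 17341 CPM in mural-like cells. Without cells holding 3 markers of another class, pial-like Pdgfrb was 489 and 462 CPM, as high as with them.

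The inner arachnoid-like layer was not uniform in Pdgfrb. Its cluster F04 had 312 and 272 CPM and its cluster F02 had 62.8 and 85.2 CPM, and by Malat1 content its cells had 315 and 278 CPM with at least 1% (72 and 77 cells), against 71.5 and 81.1 CPM under 1% (141 and 303 cells). Pdgfa showed no such gap, at 33.1 and 19.2 CPM with at least 1% Malat1, against 29.8 and 32.4 CPM under it. The layer exceeded the mean of the others by 0.59 ± 0.19 (edgeR, adjusted p = 0.0114), where the layers are averaged as logs, but its CPM was 0.987 and 0.654 times their arithmetic mean. By library the difference of logs was 0.83 in R1 and 0.29 in R2. The call was not kept by DESeq2 (adjusted p = 0.134) or with equal UMI totals (adjusted p = 0.0627), nor with split counts, nor at Leiden resolution 0.6 or 1.5, where the mean lacks the barrier-like cells. Among cells with at least 1% Malat1 the difference was 1.21 (adjusted p = 1.4e-09).

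**Figure D4:**
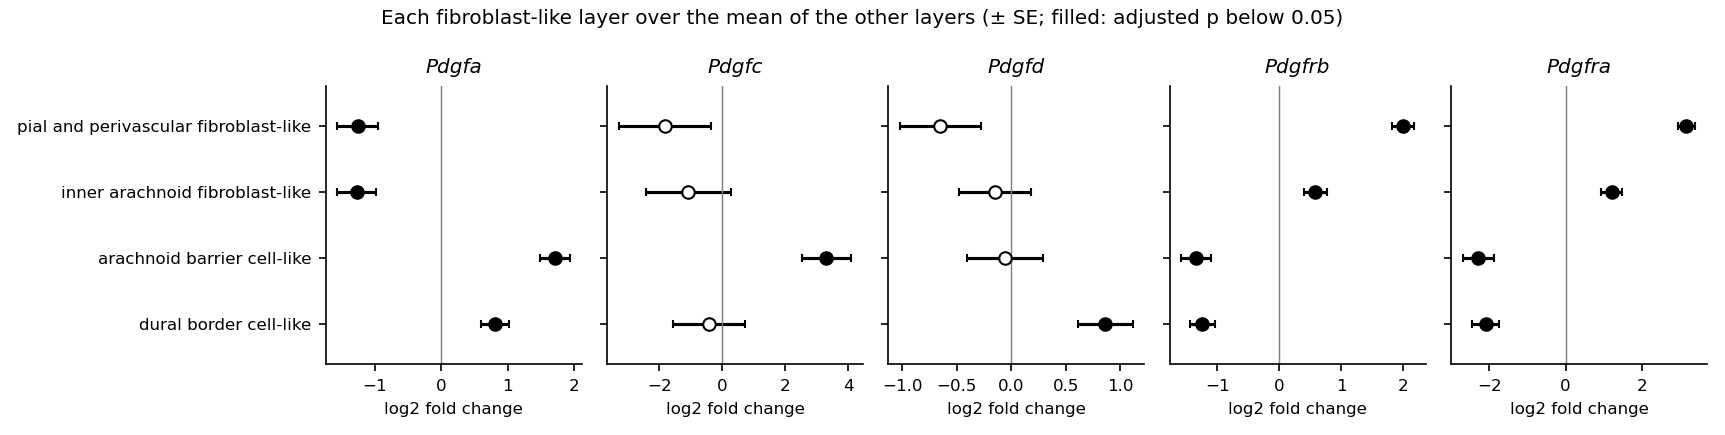
Log2 fold change (x axis) of each fibroblast-like layer over the mean of the other layers for Pdgfa, Pdgfc, Pdgfd, Pdgfrb and Pdgfra, with lines of 1 SE and filled points where edgeR's adjusted p was below 0.05. Pial-like cells stood highest for Pdgfrb (2.01) and Pdgfra (3.18), arachnoid barrier-like cells for Pdgfa (1.72) and Pdgfc (3.31), and dural border-like cells for Pdgfd (0.86); Pdgfb had too few counts in the layers to be tested.

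The cells with the highest Pdgfrb level were few, and the layers held much of its RNA. Pial-like cells held 27.8% and 22.4% of all Pdgfrb UMIs, mural-like cells 21.9% and 12%, dural border-like cells 12.9% and 12%, and inner arachnoid-like cells 12.8% and 20%. The unnamed cluster C09, which scored 2.07 on the neuronal list and 2.01 on the astrocyte list, held 5.65% and 14.6%. Thinned to 1000 UMIs, 43.2% and 43.1% of pial-like cells (67 of 155 and 31 of 72) and 47.9% and 37.5% of mural-like cells held a Pdgfrb UMI. Border macrophage-like cells, which should lack the gene, had 1.06% and 1.93%, and endothelial-like cells 2.75% and 0% (0 of 159 cells in R2, which allows up to 1.89%). Unthinned, the shares were 61.6% and 53.2% in pial-like, 71.7% and 51.4% in mural-like and 2.06% in border macrophage-like cells of each library. Median depth was 2072 and 1460 UMIs in pial-like and 1945.5 and 1671 in mural-like cells.

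Pdgfra, given for reference, was highest in pial-like cells at 257 and 213 CPM (105 and 47 UMIs), with 70.8 and 62.5 CPM in inner arachnoid-like cells, 15.2 and 16.5 CPM in arachnoid barrier-like cells and 17.6 and 15.5 CPM in dural border-like cells. Pial-like cells exceeded the other layers by 3.18 ± 0.23 (edgeR, adjusted p = 2.9e-31) and inner arachnoid-like cells by 1.21 ± 0.28 (adjusted p = 2.0e-04). In the inner arachnoid-like clusters it was 71.9 and 53.5 CPM in F04 and 69.1 and 66.8 CPM in F02, without the gap seen in Pdgfrb. Smooth muscle-like cells had 0 Pdgfra UMIs in either library, which allows up to 37.2 and 48.9 CPM, and pericyte-like cells 43.7 and 0 CPM. Of pial-like cells thinned to 1000 UMIs, 11 of 155 in R1 and 3 of 72 in R2 held UMIs of both receptors, 56 and 28 of Pdgfrb alone and 21 and 5 of Pdgfra alone.

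Counts of called genes among the 5 are given beside the share of all tested genes called, in either direction, in the same comparison. With mural-like cells over the layers, 3 of 5 were called, all higher, where 23.1% of all genes were called. Pdgfb was among these 3 (6.26 ± 0.52), on the UMIs of cells with endothelial markers, and without mixed cells its difference was −2.40 with the mural-like cells at 0 UMIs. With endothelial-like over mural-like cells, 3 of 5 were called, 1 of them higher, where 8.02% were. With endothelial-like cells over the layers, 2 of 5 were called, 1 of them higher, where 41.9% were. With border macrophage-like cells over the layers, 4 of 5 were called, 1 of them higher, where 65.1% were, and with microglia-like over border macrophage-like cells 1 of 5 was called, as higher, where 20.9% were. Within the layers 4 of the 5 could be tested. In pial-like cells 2 of 4 were called, 1 of them higher (19.2% of all genes), in inner arachnoid-like cells 2, 1 of them higher (30.8%), in arachnoid barrier-like cells 3, 2 of them higher (14.1%), and in dural border-like cells 3, 2 of them higher (22.1%). Among endothelial classes only Pdgfa and Pdgfb could be tested, and 1 of 2 was called, as higher, for arterial-like over capillary-like cells (23% of all genes), 1 of 2, as lower, for venous-like over capillary-like cells (13.4%) and none for arterial-like over venous-like cells (36.1%).

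Against the mean of the other named classes, Pdgfrb was higher by 4.99 ± 0.23 in mural-like, 4.07 ± 0.17 in pial-like and 2.78 ± 0.19 in inner arachnoid-like cells, and Pdgfa by 2.72 in mural-like and 1.92 in arachnoid barrier-like cells. Pdgfd was higher by 2.57 in dural border-like cells and lower in microglia-like cells (−3.56). Pdgfb was higher by 5.11 in endothelial-like and 4.49 in microglia-like cells. All of these passed edgeR's test at an adjusted p below 0.05. In these comparisons 3 of 5 were called in mural-like cells (16% of all genes called), 4 in endothelial-like cells (33%), 5 in arachnoid barrier-like cells (30.8%), 3 in dural border-like cells (46.3%), 3 in inner arachnoid-like cells (28.9%), 2 in pial-like cells (33.1%), 4 in border macrophage-like cells (51%), 3 in microglia-like cells (40.6%) and 4 in monocyte or dendritic-like cells (41.1%). Of those called, 3, 4, 3, 2, 2, 1, 1 and 1 were higher from endothelial-like cells on, and 3 in mural-like cells. The means are of logs over classes that include some at or near 0 counts, and sizes and directions depend on those classes. Pdgfb was called higher in border macrophage-like cells (1.74) at 46.7 and 30.2 CPM, against an arithmetic mean of 92.4 and 92.7 CPM. It was likewise called higher in monocyte or dendritic-like cells (3.01) at 67.8 and 73.6 CPM, against 89.4 and 86.5 CPM. Pdgfrb was so in arachnoid barrier-like cells (1.22) at 96.5 and 87.8 CPM, against 117 and 107 CPM.

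Proteins that cut, bind or hold PDGF ligands were taken from a list of 14 genes. In pial-like cells over the other layers 5 were higher and 1 lower of 12 tested, with a median log2 difference of 0.39 against −0.0088 over all genes, of which 19.2% were called. Among them were Hspg2, which encodes the heparan sulphate proteoglycan perlecan (191 and 172 CPM against 36.4 and 31.1 CPM; log2 difference 2.49 ± 0.24, edgeR, adjusted p = 4.1e-20), and the PDGF receptor-like gene Pdgfrl (125 and 177 CPM against 51.3 and 56.5 CPM; 1.83 ± 0.25). In dural border-like cells 4 were higher and 2 lower of 12, where 22.1% of all genes were called. Nrp1, which encodes the co-receptor neuropilin 1, was at 316 and 412 CPM there against 106 and 142 CPM in the other layers (1.82 ± 0.17, adjusted p = 4.7e-20), and Pcsk5, a proprotein convertase gene, at 219 and 194 CPM against 87.0 and 88.5 CPM (1.54 ± 0.19). In arachnoid barrier-like cells 2 were higher and 2 lower of 12 (14.1% of all genes called), with Pcsk5 at 183 and 209 CPM against 98.9 and 83.5 CPM (1.35 ± 0.23). In inner arachnoid-like cells none was higher and 7 were lower of 12 (30.8% of all genes called), among them Nrp1 (24.4 and 34.4 CPM against 203 and 268 CPM; −2.33 ± 0.27) and Pdgfrl (9.77 and 15.6 CPM against 89.6 and 110 CPM; −2.36 ± 0.35).

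In vessel and myeloid cells the same list split. In endothelial-like cells over the layers 4 were higher and 4 lower of 13 (median −0.13, against 0.0071 over all genes, of which 41.9% were called): Nrp1 was higher (0.99 ± 0.18), and Lrp1, the gene of a large endocytic receptor that associates with the beta receptor, was at 20.2 and 39.4 CPM against 730 and 729 CPM in the layers (−4.57 ± 0.25, adjusted p = 4.2e-73). In arterial-like cells Pcsk5 was at 157 and 146 CPM, against 11 and 0 CPM in capillary-like cells (4.34 ± 0.84). In mural-like cells over the layers 2 were higher and 4 lower of 13 (median −0.44, against −0.067; 23.1% of all genes called), with Hspg2 higher (1.31 ± 0.35) and Pcsk5 lower (−3.38 ± 0.70). In border macrophage-like cells over the layers 2 were higher and 8 lower of 13 (median −2.04, against −0.075; 65.1% of all genes called), with the tissue plasminogen activator gene Plat, whose product cuts PDGF-C, lower (−3.59 ± 0.20) and Nrp1 higher (389 and 449 CPM against 158 and 210 CPM; 1.94 ± 0.15). The urokinase plasminogen activator gene Plau, whose product cuts PDGF-D, was the other gene called higher, at 67.5 and 112 CPM against 0 UMIs in the layers of either library. In microglia-like over border macrophage-like cells 2 were higher and 4 lower of 13 (20.9% of all genes called), with Lrp1 at 452 and 414 CPM against 142 and 152 CPM (1.52 ± 0.20). Sparc was also higher there (4.57 ± 0.21), but it is on the microglia marker list.

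Of 23 genes of signalling next to the receptors, 9 were higher and 1 lower of 22 tested in endothelial-like cells over the layers (median 0.43, against 0.0071 over all genes, of which 41.9% were called), with the phospholipase C gamma gene Plcg1 at 125 and 69.6 CPM against 44.8 and 40.1 CPM (1.25 ± 0.24, edgeR, adjusted p = 9.5e-07). In mural-like cells over the layers 2 were higher and 1 lower of 21, where 23.1% of all genes were called: the small GTPase gene Rap1a at 296 and 449 CPM against 85.6 and 66.8 CPM (2.23 ± 0.25, adjusted p = 1.2e-17), Pik3r1, the gene of a regulatory subunit of PI3 kinase, at 157 and 94.5 CPM against 37.0 and 32.3 CPM (2.13 ± 0.35), and the adaptor gene Shc1, which was lower (−1.43). In border macrophage-like cells over the layers 6 were higher and 8 lower of 22, a share close to the 65.1% of all genes called, with the adaptor gene Grb2 higher (2.14 ± 0.16). Within the layers few were called: 1 higher in pial-like cells (Pik3r1, 1.53 ± 0.33), 1 higher and 1 lower in inner arachnoid-like cells, 1 higher in arachnoid barrier-like cells (Gab1, 1.05) and 2 higher and 1 lower in dural border-like cells, of 20 tested, where 19.2%, 30.8%, 14.1% and 22.1% of all genes were called. The classes were drawn from the same counts, and the lists carry no test of their own.

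The genes whose levels went most closely with each of the 5 were found by Pearson's correlation of log2 CPM over the 22 sums of 11 classes in 2 libraries, among 7378 genes of at least 20 CPM on average. For Pdgfb these were Arap3 (0.938), Itga6 (0.930) and Fmnl3 (0.926). For Pdgfrb they were Vstm4 (0.948), Rarres2 (0.943) and Smarcd3 (0.941), and for Pdgfa Hes1 (0.917), Slc12a4 (0.898) and Id1 (0.893). For Pdgfd they were Nfib (0.964), Ppic (0.953) and Usp54 (0.948), and for the scarce Pdgfc Msln (0.843), Homer2 (0.808) and Cyp2f2 (0.804). The 22 sums share their library and depth, and classes are not replicates, so these values are descriptions.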

How the data were processed

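Single cells of mouse leptomeninges were measured in 2 droplet libraries. The values the authors deposited are raw UMI counts, 1 for each gene and cell barcode. Per the file headers they come from Cell Ranger 4.0.0, and per the submitters' processing notes the build was mm10. The filtering of barcodes, the annotation and the strand setting of the counting are not given in the sources used here. All later steps were computed from these counts. The lowest barcode held 500 UMIs. Barcodes with fewer than 400 genes or over 10% mitochondrial UMIs were dropped: 1314 barcodes in R1 and 1369 in R2 were under the gene limit and 3631 and 2905 over the mitochondrial one, so these limits removed more barcodes than they kept. Kept cells had medians of 1643.5 and 1249 UMIs.

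Cells were clustered with scanpy 1.11.5 (python 3.11.15; 2000 variable genes, 30 components, 15 neighbours, Leiden resolution 1.0), and fibroblast-like and vascular cells again at 1.3 and 1.0. In the first round a cluster was named where its best marker list led the next by a margin of 1.0. Apart from fibroblast-like clusters, it also needed at least 3 markers detected and no more markers of another class than of its own among its top 10 genes. Subclusters needed both of these conditions, but the margin rule differed. They needed either a marker of their own list in the top 10 or a score of at least 1.0 with a margin of 0.75. The arachnoid barrier-like cluster scored 0.749 on its own list and 0.656 on the dural border list, and was named through 1 own marker among its top 10 genes. These naming limits were set after clusters had been seen, and the members, marker lists and pathway lists were chosen with earlier results of these data known. Scrublet called 3 cells in each library (0.1004% and 0.0987%) and so did not work; no cells were removed as doublets, and an alternative left out cells with at least 3 markers of another class.

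Counts were added up over the cells of each class in each library and tested with edgeR 4.0.16 in R 4.3.3 (quasi-likelihood test, TMM, filterByExpr, library as a block, Benjamini-Hochberg over all genes of the comparison, called at 0.05). The classes of 50 or more cells in both libraries entered 1 fit (8 classes, 9821 genes). Mural-like cells had fewer than 50 in R2, so their comparisons came from the fit with a minimum of 20 cells (11 classes, 10271 genes), and those against other classes for the rest from the first. The layers (8191 genes) and the endothelial classes (3309 genes) had fits of their own. The library number pairs the classes because cells of 1 library were processed together. In simulated data, changes of 2 on the log2 scale were found for 83.1% of genes in endothelial-like over layer cells, 57.0% in mural-like over layer cells, 87.1% in pial-like over other layers and 75% in arterial-like over capillary-like cells; changes of 1 were found for 49.5%, 11.4%, 48.6% and 22.9%.

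Besides the 5 genes and Pdgfra, the text names for each of them the 3 genes of highest correlation, and from the pathway lists up to 2 genes per direction, list and comparison with the largest change among those called, with the same direction in both libraries and at least 50 CPM on the higher side. Alternatives were DESeq2 1.42.0, its size factors, no filter, no block, each library left out, other limits on genes, mitochondrial UMIs and Malat1, other resolutions, equal UMI totals, split counts, and shared barcodes, mixed cells or unnamed clusters treated otherwise.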

Additional observations from a re-analysis of the deposited data

Results flagged for a closer look

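Clusters left unnamed, because they did not meet the naming limits, held several of the 5 genes above the median of the named classes. That median was 41.6 and 31.7 CPM for Pdgfa in R1 and R2, 46.7 and 30.2 CPM for Pdgfb, 2.94 and 0 CPM for Pdgfc, 28.3 and 22.6 CPM for Pdgfd and 87.2 and 87.8 CPM for Pdgfrb. These clusters entered no comparison, and values below are means of R1 and R2. Cluster C09 scored almost alike on the neuronal (2.07) and astrocyte (2.01) lists. Its leading genes included Meg3 and Gria2, and also Dpp4 of the arachnoid barrier list. It had 233.6 CPM of Pdgfrb (208 and 259 CPM from 39 and 68 UMIs) and 136.1 CPM of Pdgfa (139 and 133 CPM). Cluster C05, led by Pcsk1n, Nrgn and Kif5a, had 112.2 CPM of Pdgfa (120 and 104 CPM), and scored 3.90 on the neuronal and 3.04 on the oligodendrocyte list. Cluster V04, whose leading genes included the dural border gene Slc47a1, had 261.4 CPM of Pdgfb (230 and 293 CPM), 137.9 CPM of Pdgfrb (173 and 103 CPM) and 126.4 CPM of Pdgfa (115 and 138 CPM). Cluster V05, led by Gh and Depp1 and made almost wholly of shared barcodes, had 231.7 CPM of Pdgfb (204 and 259 CPM). Cluster V06, led by Nxt2 and Ino80c, scored 1.96 on the pericyte list and 1.28 on the smooth muscle list. It had 210.7 CPM of Pdgfrb from only 4 and 6 UMIs (257 and 164 CPM).

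Among the unnamed fibroblast-like clusters, F05, led by Ttr, Ctla2a and Nrgn, had 106.2 CPM of Pdgfa (106 CPM in each library) and 45.59 CPM of Pdgfd (40.8 and 50.4 CPM). Cluster F06, led by Dapl1 and Krt80, had 113.9 CPM of Pdgfa from 5 and 4 UMIs (171 and 56.4 CPM). Cluster F07, led by Rfk and Tmsb15b1, had 105 CPM of Pdgfa (120 and 90.3 CPM) and 29.31 CPM of Pdgfc (26.6 and 32.0 CPM), a Pdgfc level close to that of the arachnoid barrier-like cells (27.9 and 32.9 CPM). Cluster F09, led by the macrophage genes C1qa and C1qc, had 103.8 CPM of Pdgfrb (112 and 95.7 CPM).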

How the results depend on the processing

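Over 79 results for the 5 genes, 894 of 977 values under other settings stayed on the same side of the threshold, 74 lost the call and 6 gained it. Another 3 changed sign where the main or the other value was called. The 79 leave out results with a large SE and all those of monocyte or dendritic-like cells over the other classes. A change of sign between uncalled values was counted among the 894. Without cells holding 3 markers of another class, mural-like Pdgfb fell to 0 UMIs, and its fitted differences were −2.40 over the layers and −5.08 over the other classes, which are no bounds. At Leiden resolution 1.5, endothelial-like Pdgfrb over the other classes was 0.035. Pdgfa in endothelial-like over mural-like cells was −0.67 without shared barcodes, −1.08 without mixed cells and −0.97 with split counts, all past no threshold, and Pdgfb in that comparison was 0.19 with split counts. The cause of these changes was not tested, save that nearly all mural-like Pdgfb UMIs lay in the cells left out. No arachnoid barrier-like class was named at Leiden resolution 0.6 or 1.5, so layer comparisons there are against other means. Without the replicate block 78 of 79 results kept their call, the exception being Pdgfa in arterial-like over capillary-like cells (1.32, adjusted p = 0.0502), and all 21 counts of called genes stayed within 1.5 times.

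With 1 library left out, a difference has no residual degrees of freedom and no test. The values by library are differences of log2 CPM with a prior count of 2, a different estimate from the fitted differences. Both can lie on 1 side of the fitted value, as for Pdgfb in endothelial-like cells over the layers (5.48 and 6.02, against 7.61 fitted). Pdgfa ranged from −1.35 to −1.07 in border macrophage-like cells over the layers. Pdgfb ranged from 1.0 to 2.12 in endothelial-like over mural-like cells, 3.21 to 4.81 in mural-like cells over the layers, 2.41 to 3.36 in border macrophage-like cells over the layers and 5.48 to 6.02 in endothelial-like cells over the layers. Pdgfd ranged from −2.77 to −2.34 and Pdgfrb from −3.73 to −3.54 in border macrophage-like cells over the layers, and Pdgfrb from 2.05 to 2.33 in mural-like cells over the layers. Called differences that moved by over 1.5 times between the libraries also included Pdgfa in mural-like cells over the layers (1.38 to 2.54) and in arterial-like over capillary-like cells (0.82 to 1.5), Pdgfb in venous-like over capillary-like cells (−1.15 to −0.42), and Pdgfrb in inner arachnoid-like (0.29 to 0.83) and dural border-like cells (−1.45 to −0.93) within the layers and in endothelial-like cells over the layers (−3.94 to −2.36). Without R1, 37 of 79 results lay at least 1 SD of the library values away from the fitted difference, and without R2 33 did. The change of estimate and the change of library cannot be told apart in these counts.

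Counts of called genes moved by over 1.5 times as follows. With split counts, which hold fewer UMIs, they were 1962 for endothelial-like cells over the layers (4112 with all counts), 3717 for border macrophage-like cells over the layers (6398), 1330 for mural-like cells over the layers (2376), 415 for endothelial-like over mural-like cells (824) and 403 for arterial-like over venous-like cells (1194). Within the layers split counts gave 999 for pial-like (1576), 1326 for inner arachnoid-like (2526), 454 for arachnoid barrier-like (1156) and 960 for dural border-like cells (1813). Over the other classes they gave 1056, 3179, 2340, 1506, 1291, 2007, 1766 and 970 called genes for arachnoid barrier-, border macrophage-, dural border-, endothelial-, inner arachnoid-, monocyte or dendritic-, pial- and mural-like cells. DESeq2 called 1271 for microglia-like over border macrophage-like cells (2051 by edgeR), 504 for endothelial-like over mural-like cells, 824, 1068, 543 and 761 for pial-, inner arachnoid-, arachnoid barrier- and dural border-like cells within the layers, 271 for arterial-like over capillary-like (762), 469 for arterial-like over venous-like and 82 for venous-like over capillary-like cells (445). At most 5% mitochondrial UMIs gave 1866 and 2122 for inner arachnoid- and pial-like cells over the other classes, 543 for endothelial-like over mural-like cells, 874, 1150 and 1135 for pial-, inner arachnoid- and dural border-like cells within the layers and 446 for arterial-like over capillary-like cells. Equal UMI totals gave 1277 for microglia-like over border macrophage-like cells, 2963 and 1090 for border macrophage- and mural-like cells over the other classes, 417 for endothelial-like over mural-like cells, 1634 for inner arachnoid-like cells within the layers, 772 for arterial-like over venous-like and 233 for venous-like over capillary-like cells. Without shared barcodes there were 1526 for mural-like cells over the layers, 470 for arterial-like over venous-like and 261 for venous-like over capillary-like cells. Without mixed cells there were 820 and 783 for mural-like cells over the layers and over the other classes and 289 for venous-like over capillary-like cells. Leiden resolution 1.5 gave 1574 for mural-like cells over the layers, 1228 for inner arachnoid-like cells within the layers and 684 for arterial-like over venous-like cells. For inner arachnoid-like cells within the layers, at least 800 genes gave 1329 and at least 1% Malat1 gave 1154. With unnamed clusters added, the layers had 2787, 1551, 1767 and 3300 for pial-, inner arachnoid-, arachnoid barrier- and dural border-like cells. Depth limits results on few UMIs, such as Pdgfc in arachnoid barrier-like cells (11 and 6 UMIs) and Pdgfd in mural-like cells (4 and 1 UMIs).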
